A study of Mus musculus with 16 samples.

Results

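The genes described here are 9 that mark a resting, mature B cell: Cd79a, Cd79b, Ms4a1, Cd22, Blk, Fcer2a, Cr2, Pax5 and Ebf1. They were chosen by name, as a list, from the 35647 genes of the deposited table, and all 9 were found and tested in every comparison. Wild-type mice were kept germ-free in isolators and were then colonized for 5 weeks with a single bacterium, *Bifidobacterium breve*. It was either the unmodified strain (WT) or the Δchat strain, and the study's title places bacterial acetylcholine at its centre. Lamina propria immune cells of colon and of ileum were taken from 4 mice per strain on a 40% and 80% Percoll gradient, and polyadenylated RNA of the whole preparation was sequenced in bulk. That gave 4 groups of 4 libraries: colon WT, colon Δchat, ileum WT and ileum Δchat. All groups shared the wild-type genotype and the germ-free start, and neither mice left germ-free nor mice with a complete flora were among the libraries. The ages of the mice were not among the labels. A colon and an ileum library of 1 strain that carry the same number were treated as coming from 1 mouse. Libraries held between 15940467 and 23612561 estimated counts.

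A resting B cell waits in the recirculating pool or in a lymphoid follicle with its antigen receptor on the surface. The receptor is a membrane immunoglobulin, mostly IgM and IgD, held in a complex with the signalling chains that Cd79a and Cd79b encode. The transcription factors Ebf1 and Pax5 install and maintain the B cell programme, and Pax5 with most of the surface genes is switched off when a B cell becomes an antibody-secreting plasma cell. In the gut, resting B cells gather in isolated lymphoid follicles and Peyer's patches, whereas the lamina propria around them is rich in plasma cells that secrete IgA. Several of the genes are not restricted to B cells: Cd79a is kept to some degree by plasma cells, Blk is also used by some γδ T cells, Cr2 and Fcer2a are also found on follicular dendritic cells, and Ebf1 is also expressed in stromal cells.

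The stretch just upstream of the start site was available for 6 of the 9 genes (Cd79a, Cd22, Pax5, Ebf1, Cr2 and Fcer2a), as 9 windows because Fcer2a and Ebf1 have several starts. Those of Cd79a and Cd22 are printed as examples, Cd22 for its match to a form bound by Ebf1. The windows hold the 250 bases before the start in RefSeq, build GRCm38.p6, and capitals mark matches to CCCNNGGG (a form bound by Ebf1), CANNTG (the E-box), GGAAGT (a core bound by ETS factors) or ATGCAAAT (the octamer) on either strand; matches to 3 further motifs were counted but not marked. The Cd79a window is chr7:24897247-24897496 on the plus strand and the Cd22 window is chr7:30879029-30879278 on the minus strand, both given 5′ to 3′ along the gene.
Cd79a: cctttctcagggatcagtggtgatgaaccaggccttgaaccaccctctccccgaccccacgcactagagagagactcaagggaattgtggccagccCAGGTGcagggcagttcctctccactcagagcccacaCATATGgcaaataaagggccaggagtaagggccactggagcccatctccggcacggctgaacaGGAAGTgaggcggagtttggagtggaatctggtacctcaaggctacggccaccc
Cd22: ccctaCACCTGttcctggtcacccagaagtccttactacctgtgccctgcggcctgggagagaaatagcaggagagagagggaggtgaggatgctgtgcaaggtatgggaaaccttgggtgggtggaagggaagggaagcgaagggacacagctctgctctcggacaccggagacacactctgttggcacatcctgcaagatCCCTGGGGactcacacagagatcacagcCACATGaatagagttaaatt
Cd79a has GGAAGT starting 54 bases before the start site, a motif that 19.7% of all 32851 windows of this length hold. It was in 4 of the 9 windows, with matches for Cd79a, Cr2, Ebf1 and Fcer2a. Cd22 has the only match to CCCNNGGG among the 9 windows, starting 48 bases before its start, and 11.8% of all windows hold one. It is also the only match to the longer form TCCCNNGGGA, which contains the shorter one and is in 0.779% of all windows. CANNTG was in 6 of the 9 windows, near its share of 66.2% of all windows, and CCTCCC was in a window of Cd22 and Ebf1, against 38% of all. No window of the 9 held ATGCAAAT, present in 1.6% of all, or GAGGAAGT, which contains GGAAGT and is present in 2.44%. A match is a description of these letters. The windows printed and marked were chosen after the matches were seen.

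Another B cell gene checked the label. Ighd, the heavy chain of IgD, lay between 147 and 467 CPM in the 8 colon libraries and between 22.4 and 134 CPM in the 8 ileum libraries. CPM are estimated counts put on a common library size, scaled by TMM over all 16 libraries. They compare 1 gene between libraries, not genes with each other. Markers of other cells were also present, with summed CPM of 17 plasma cell genes between 24130 and 202400.

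Cd79a encodes Igα, the chain through which the antigen receptor signals. Its level was 767, 534, 441 and 594 CPM in colon WT replicates 1 to 4 and 456, 475, 292.5 and 349 CPM in colon Δchat. In ileum it was 198, 221, 265 and 162 CPM with WT, and 385, 105, 115.5 and 330.5 CPM with Δchat. The 4 ileum WT libraries all lay below the 8 colon libraries, whereas Δchat replicates 1 and 4 of ileum reached into the colon range and replicates 2 and 3 were the lowest of all 16. Cd79b, its partner Igβ, had 175 ± 39.0 CPM with WT and 113 ± 30.1 with Δchat in colon, and 70.2 ± 14.9 with WT and 82.7 ± 48.7 with Δchat in ileum (mean ± SD, n = 4 each). Its lowest libraries were again ileum Δchat 2 and 3.

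Blk, a Src family kinase that acts close to the receptor, had 178 ± 45.2 CPM with WT and 134.5 ± 29.5 with Δchat in colon, and 41.1 ± 18.2 and 59.6 ± 48.6 in ileum (mean ± SD, n = 4 each). Cd22, an inhibitory receptor for sialic acid that damps receptor signals, had 318.5 ± 97.9, 231 ± 72.7, 81.9 ± 36.1 and 123 ± 88.1 CPM in the same order (mean ± SD, n = 4 each). For Blk the 4 ileum Δchat libraries held 111, 19.6, 16.5 and 91.8 CPM. For Cd22 they held 216, 62.8, 34.1 and 179 CPM. In both genes replicates 1 and 4 formed the high pair.

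Ms4a1 encodes CD20, a surface protein of B cells that plasma cells lose. It stood at 446, 281, 227 and 316 CPM in colon WT and at 256, 282, 152 and 179 CPM in colon Δchat. In ileum it stood at 64.4, 39.9, 110.4 and 35.8 CPM with WT and at 168, 26.2, 24.8 and 145 CPM with Δchat. The lowest colon library was above all ileum WT libraries, and ileum Δchat 1 was above the lowest colon Δchat library.

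Cr2, the complement receptor CD21, and Fcer2a, the low-affinity IgE receptor CD23, are surface receptors of mature B cells. Cr2 stood at 411, 194, 207 and 252 CPM in colon WT and at 254, 234, 150.3 and 154 CPM in colon Δchat. In ileum it stood at 40.1, 28.9, 78.1 and 24.6 CPM with WT and at 132, 21.6, 18.6 and 127 CPM with Δchat. Cr2 was the only 1 of the 9 genes whose 8 colon libraries all lay above its 8 ileum libraries with either strain. Fcer2a had 329 ± 80.6 CPM with WT and 223.5 ± 67.6 with Δchat in colon, and 76.7 ± 39.4 and 104 ± 90.1 in ileum (mean ± SD, n = 4 each), and its ileum Δchat libraries ran from 25.5 to 202 CPM.

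Pax5, the factor that maintains B cell identity, stood at 602, 396.5, 348 and 556 CPM in colon WT and at 457.5, 446, 235 and 297 CPM in colon Δchat. In ileum it stood at 116, 83.5, 179 and 83.0 CPM with WT and at 314, 58.1, 53.8 and 276 CPM with Δchat. Ebf1, which acts upstream of Pax5 in early B cells, stood at 177, 142, 128 and 156 CPM in colon WT and at 202, 171, 122.5 and 151 CPM in colon Δchat. In ileum Ebf1 stood at 63.4, 58.3, 74.8 and 60.0 CPM with WT and at 123, 59.7, 77.5 and 121 CPM with Δchat. The range of Ebf1 was the narrowest of the 9 genes in each of the 4 groups but colon Δchat, where Blk and Cd79a had a narrower one.

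**Figure D1:**
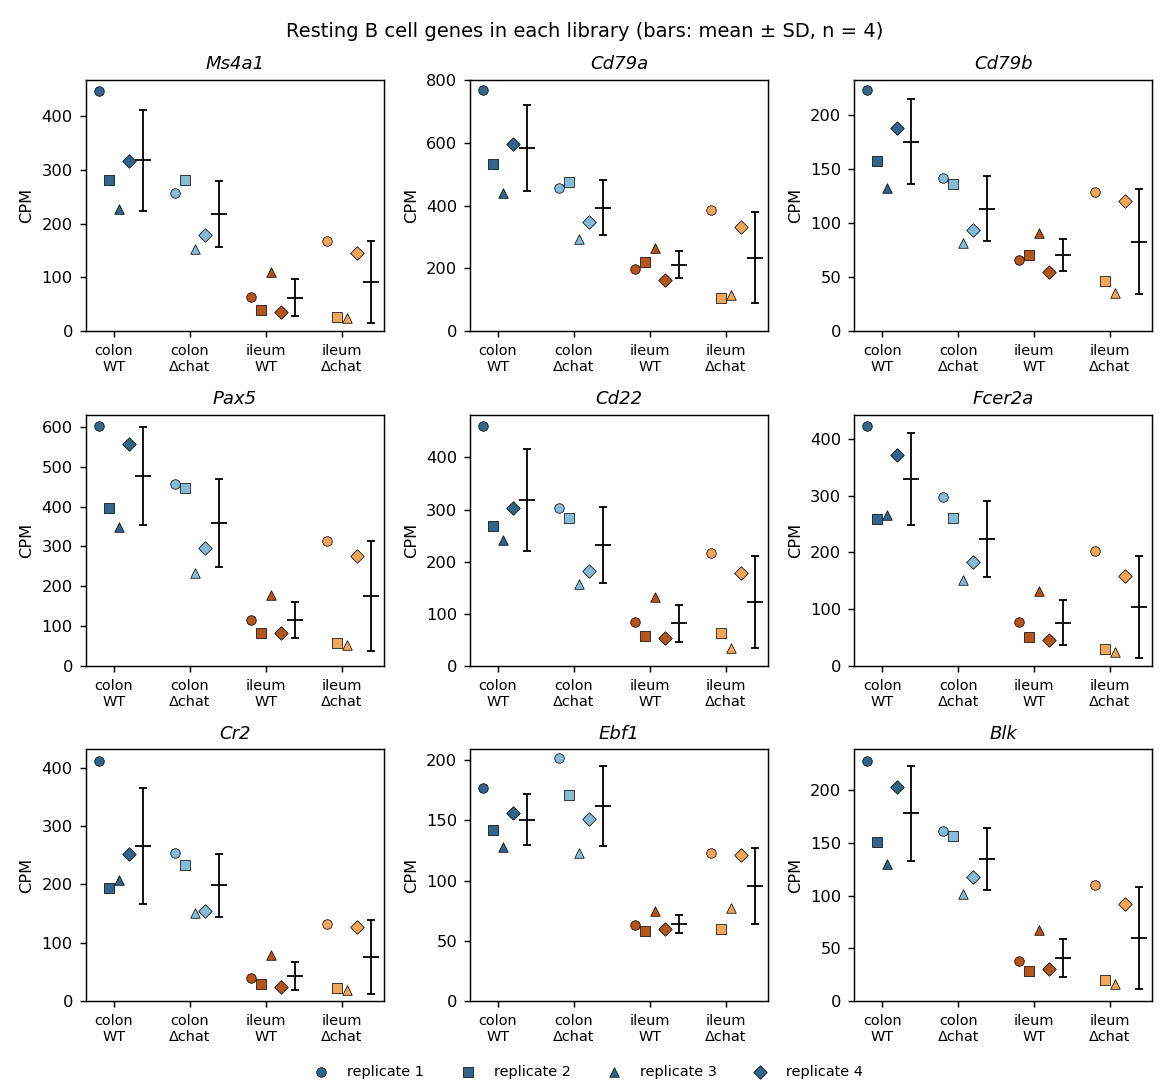
CPM (vertical axis, from 0) of each of the 9 genes in the 16 libraries by group, 1 panel per gene and 1 point per library, with its shape for the replicate and the group's mean ± SD beside the points. The ileum Δchat libraries split into a high pair (replicates 1 and 4) and a low pair (2 and 3), most widely for Fcer2a, where the highest was 7.93 times the lowest.

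The ileum libraries were uneven. With Δchat, the highest library was between 2.05 times (Ebf1) and 7.93 times (Fcer2a) the lowest, with 7.07 for Cr2, 6.78 for Ms4a1, 6.69 for Blk, 6.34 for Cd22, 5.84 for Pax5, 3.66 for Cd79a and 3.64 for Cd79b. With WT in ileum that ratio lay between 1.28 for Ebf1 and 3.18 for Cr2. In colon it was lower, between 1.39 and 2.12 with WT and between 1.59 and 1.96 with Δchat. Replicates 1 and 4 of ileum Δchat were the top 2 of the 8 ileum libraries for 9 of 9 genes, and replicates 2 and 3 were the lowest of all 16 libraries for 7 of 9, the exceptions being Cd22 and Ebf1. These order counts were made after the values were seen, and the share of all genes with such an order was not counted. The 9 genes vary together over the libraries, so the counts are not separate results.

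Markers of other cells also differed among these 4 libraries. In ileum Δchat replicates 1 to 4, the summed CPM of 10 macrophage genes were 1223, 4064, 1929 and 933, lowest in the libraries that were high for the 9 genes. The summed CPM of 7 stromal genes were 1361, 1227, 6557 and 2494, and those of 13 epithelial genes 325, 112, 258 and 493. The 17 plasma cell genes summed to 114600, 66980, 81990 and 95780 CPM, higher in replicates 1 and 4, as the 9 genes were. The part of these cells in the split was not tested. In bulk RNA, fewer B cells and less RNA of these genes per B cell cannot be told apart, here and in each comparison below.

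With the WT strain, all 9 genes were lower in ileum than in colon. The largest difference was in Cr2, which fell by 2.65 ± 0.62 on the log2 scale (6.26-fold, adjusted p 0.00807), and the smallest in Ebf1, which fell by 1.25 ± 0.22 (2.37-fold, adjusted p 0.0014; log2 fold change ± SE, n = 4 libraries a group, edgeR's quasi-likelihood test with Benjamini-Hochberg adjustment over 15198 genes). CD20 (Ms4a1) was 5.13-fold lower, with a log2 difference of -2.36 ± 0.60 and a 95% interval of -3.64 to -1.07. Blk was 4.38-fold, Fcer2a 4.34-fold, Pax5 4.17-fold and Cd22 3.93-fold lower, and the receptor chains Cd79a and Cd79b 2.79-fold and 2.52-fold lower. The adjusted p of these 7 lay between 0.0106 (Cd79a) and 0.0187 (Fcer2a).

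Of all genes tested in that comparison, 15.1% were called lower and 13.7% higher in ileum, at an adjusted p under 0.05. The 4 ileum libraries lay wholly below the 4 colon libraries for 9 of 9 members, against 18.3% of all genes. The calls were least firm for Fcer2a and Cd79b: without colon WT replicate 1, which was the highest colon library for both, their adjusted p were 0.0540 and 0.0567. Fcer2a also missed the threshold without ileum WT replicate 2 (0.0526) or 4 (0.0555), and the other 7 genes were called with any single library left out.

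With the Δchat strain, only Ebf1 was called lower in ileum than in colon among the 9, by 0.77 ± 0.21 on the log2 scale (1.70-fold, adjusted p 0.0287). In that comparison 5.03% of all genes were called lower and 8.31% higher. The other 8 had log2 differences between -0.45 (Cd79b) and -1.40 (Cr2), with adjusted p between 0.139 and 0.437. The 95% interval of Ms4a1 ran from -2.50 to -0.01 and that of Cd79b from -1.23 to 0.33. The groups did not overlap for Cr2 alone, that is 1 of 9 genes, against 6.12% of all genes with all ileum Δchat libraries below all colon Δchat libraries. The call of Ebf1 was lost without any 1 of 4 libraries: colon Δchat 1 (adjusted p 0.0847), colon Δchat 2 (0.0605), ileum Δchat 2 (0.0636) and ileum Δchat 3 (0.0669).

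**Figure D2:**
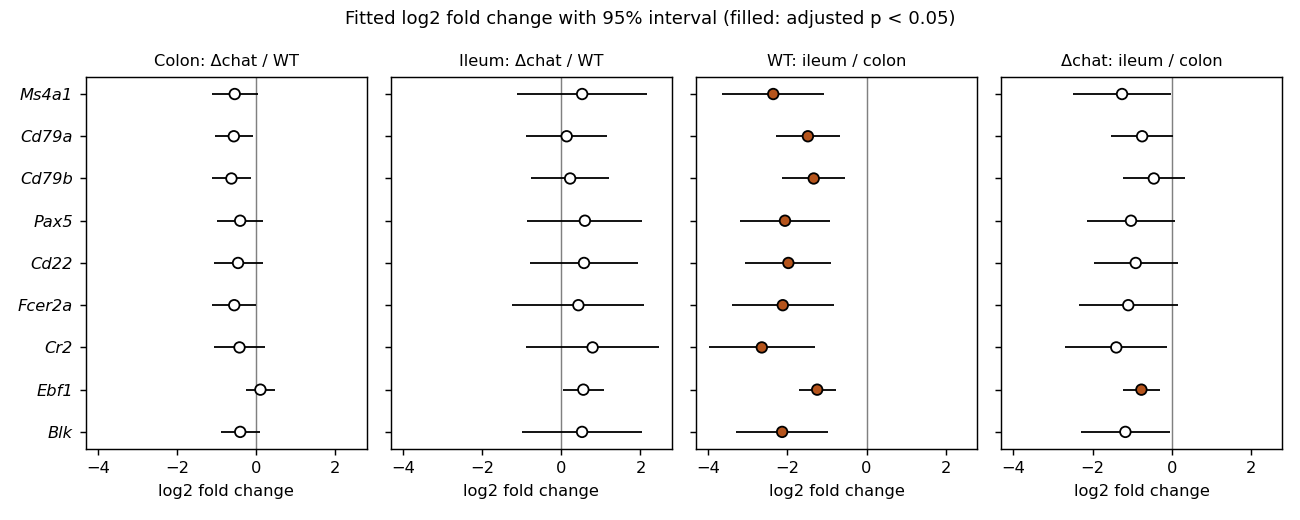
Log2 fold change of each of the 9 genes (points) with its 95% interval (bars) in the 4 comparisons between groups, filled where called. All 9 intervals lie below 0 for ileum against colon with WT, and Ebf1 is the only filled point with Δchat.

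With libraries of 1 number treated as 1 mouse, the 9 genes can also be set side by side within a mouse. Their mean log2 CPM went from 8.55 in colon to 6.20 in ileum in WT mouse 1, from 7.91 to 5.86 in mouse 2, from 7.75 to 6.84 in mouse 3 and from 8.21 to 5.71 in mouse 4. In the Δchat mice it went from 8.03 to 7.50, from 7.97 to 5.37, from 7.23 to 5.19 and from 7.46 to 7.31. All 8 mice had the lower value in ileum, and the difference of ileum minus colon was smallest in Δchat mice 1 and 4, at -0.53 and -0.15. Gene by gene, the ileum was lower in all 8 mice, except for Cd79b, where it was lower in 7 of 8. In Δchat mouse 4 the ileum held 1.28 times the colon level of Cd79b. The 9 genes come from the same mice and vary together, so they are not replicates of each other. The share of all genes with such an order was not counted.

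**Figure D3:**
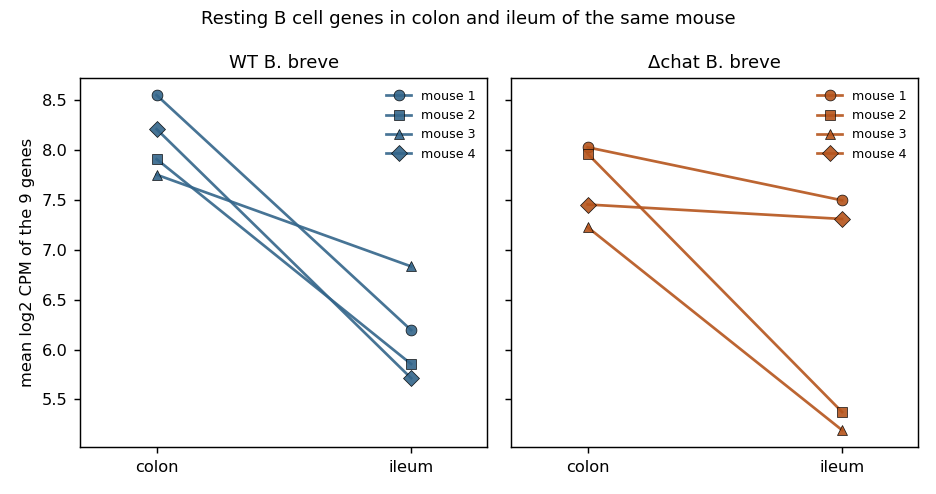
Mean log2 CPM of the 9 genes in colon and ileum, with a line joining the 2 libraries of 1 number, treated as 1 mouse, and a panel per strain. Lines of Δchat mice 1 and 4 are nearly flat (-0.53 and -0.15), while those of Δchat mice 2 and 3 are steep (-2.59 and -2.04).

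In colon, the question was whether loss of chat in the bacterium went with another level of these genes, and none of the 9 was called between strains. The largest differences were in the receptor chains: Cd79b was at -0.63 ± 0.22 (95% interval -1.13 to -0.12, adjusted p 0.328) and Cd79a at -0.56 ± 0.21 (-1.04 to -0.09, adjusted p 0.335), as log2 of Δchat against WT ± SE in edgeR's test over 14660 genes. These were the 2 of 9 genes with an unadjusted p under 0.05 on the lower side, against 5.31% of all genes. Ms4a1 was at -0.54 (95% interval -1.12 to 0.04) and Fcer2a at -0.55, and Cd22, Cr2, Pax5 and Blk lay between -0.46 and -0.40. Ebf1 was the only 1 above 0, at 0.11 with an interval of -0.26 to 0.48.

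The differences of 8 of 9 members were below 0, as those of 49.0% of all genes were, and the median of the members was -0.46, against 0.01 for all genes. The 4 libraries a strain overlapped in all 9 members, while 3.95% of all genes had every Δchat library below every WT library. Only 0.00682% of all genes were called, that is 1 gene. The median was -0.26 without colon WT 1, the highest colon library for 8 of 9 genes, -0.31 without colon Δchat 3, the lowest for all 9, and -0.19 with limma-voom and quality weights.

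That Δchat library also stood apart in another way. Its 13 epithelial genes summed to 3688 CPM, against 270 to 312 in the other colon Δchat libraries and 55.2 to 235.5 in colon WT, and 12 of 12 epithelial genes tested had an unadjusted p under 0.05 on the higher side with Δchat, none called. The epithelial score, the mean log2 CPM of these 13 genes, was 3.449 to 7.045 in colon Δchat and 1.301 to 3.292 in colon WT. The strains do not overlap in it, so a fit with this covariate cannot tell strain and epithelium apart. In that fit the median of the 9 genes was 0.000345 and Pax5, Blk, Cr2 and Cd22 changed sign without being called. The 17 plasma cell genes summed to 24130 to 34280 CPM in the Δchat colon libraries, against 45100 to 88490 with WT, and 16 of 17 had an unadjusted p under 0.05 on the lower side while none was called. Macrophage genes lay the other way, with 452 to 919 summed CPM against 343 to 490 with WT and 10 of 10 at an unadjusted p under 0.05 on the higher side. Of 8 dendritic cell genes, 4 were at such a p on the higher side and 1, Siglech (-1.05), on the lower side. None of either list was called. The share of all genes at such a p on the higher side in colon is not given here. The part of these cells in the values of the 9 genes was not tested, and the epithelial covariate cannot test it here.

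In ileum, the Δchat libraries had the higher mean for all 9 genes, but none was called between strains, and the intervals were wide. The median log2 difference of the 9 was 0.53, against 0.01 for all genes. Because the 9 genes vary together, their shared sign is not a set of separate results. Log2 differences ran from 0.13 for Cd79a (95% interval -0.89 to 1.16) to 0.79 for Cr2 (-0.90 to 2.48), with adjusted p between 0.428 and 0.936 in edgeR's test over 14496 genes, of which 0.0207% were called. Ebf1, at 0.56 ± 0.23 with an interval of 0.04 to 1.07, was the only 1 with an unadjusted p under 0.05 (0.0385, adjusted p 0.428), against 4.81% of all genes on the higher side. The interval of Ms4a1 ran from -1.12 to 2.17. Leaving out ileum Δchat 1 moved the median of the 9 from 0.53 to 0.05, with Cd79a, Fcer2a and Cd79b then below 0, and leaving out ileum Δchat 4 moved it to 0.23. It was 0.88 without ileum WT 3, 0.79 without ileum Δchat 2 and 0.84 without ileum Δchat 3. With the replicate block, which here joins WT and Δchat mice by number alone, it was 0.19. With the epithelial covariate it was -0.004146, with 5 of 9 genes below 0. The epithelial score was 1.816 to 3.937 in ileum WT and 1.955 to 4.699 in ileum Δchat, so the strains overlap in it, unlike in colon.

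No gene of the other lists was called between strains in ileum either. The 17 plasma cell genes had a median of -0.48, with 12 at an unadjusted p under 0.05 on the lower side, and the 9 genes lay the other way. The share of all genes at such a p on the lower side in ileum is not given here. The 7 stromal genes had a median of -0.998 and the 13 epithelial genes one of 0.78, with 0 and 1 at an unadjusted p under 0.05. The part of these cells in the values of the 9 genes was not tested.

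The difference of the strain effect between ileum and colon was tested in 1 fit over the 16 libraries. It was above 0 for all 9 genes, from 0.48 for Ebf1 (95% interval -0.16 to 1.13) to 1.25 for Cr2 (-0.55 to 3.04). The median of the 9 was 1.02, against 0.02 for all genes. None was called, with adjusted p between 0.645 and 0.696 in edgeR's test, against 0.0592% of all genes called. The 9 genes vary together, so their shared sign is not a set of separate results. The tissue comparisons and this one share libraries with the strain comparisons, so their values are not independent of each other.

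Within the set, 8 of the 9 genes kept nearly the same profile over the libraries and Ebf1 kept it less closely. Over the 28 pairs without Ebf1, Pearson's r of log2 CPM lay between 0.893 and 0.99 in the 8 colon libraries and between 0.886 and 0.996 in the 8 ileum libraries. The 8 pairs with Ebf1 had 0.512 to 0.709 in colon and 0.708 to 0.835 in ileum. These correlations are descriptions: the libraries share the tissue, the preparation and, between tissues, the mouse if the assumed pairing holds.

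Set against Ms4a1, Ebf1 also differed by group. Its CPM were between 0.397 and 0.562 times those of Ms4a1 in colon WT, between 0.608 and 0.843 times in colon Δchat, between 0.678 and 1.68 times in ileum WT and between 0.731 and 3.13 times in ileum Δchat. The colon groups did not overlap in this ratio, which was chosen after the values were seen and was not tested. The highest ratio, in ileum Δchat 3, stood in the library with the most stromal RNA of its group, 6557 summed CPM, although ileum Δchat 2 with 1227 had the next, 2.28. Cd79a set against Ms4a1 ran from 1.69 to 1.95 over all 8 colon libraries and from 2.28 to 5.53 over the 8 ileum libraries. The summed plasma cell genes ran from 24130 to 88490 CPM in colon and from 66980 to 202400 CPM in ileum. Unlike Cd79a, these sums were not set against Ms4a1. The part of stromal and plasma cells in these ratios was not tested.

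**Figure D4:**
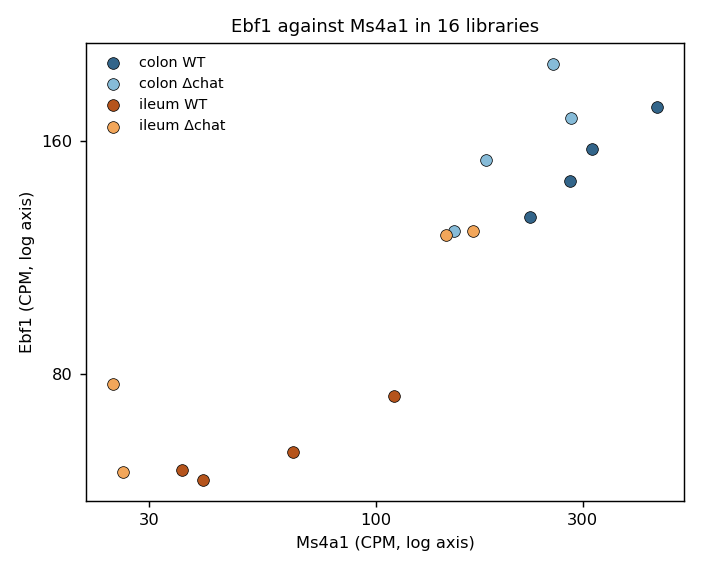
CPM of Ebf1 against CPM of Ms4a1 in the 16 libraries (both axes log), 1 point per library with colour for the group. The ratio of Ebf1 to Ms4a1 was 0.608 to 0.843 in colon Δchat and 0.397 to 0.562 in colon WT, and Ebf1 stayed between 58.3 and 77.5 CPM in the 6 ileum libraries lowest in Ms4a1.

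Among the genes whose log2 CPM followed the mean profile of the 9 most closely was H2-Ob (r = 0.997 over 16 libraries, 0.973 in colon and 0.998 in ileum), a chain of the MHC class II-like protein H2-O of B cells. It was followed by Snn, Srpk3, Scd1, Gga2, Fcrl1, H2-Oa, Bank1 and H2-DMb2, with r between 0.992 and 0.996 over the 16 libraries. Without the 2 libraries farthest from the median, ileum Δchat 2 and 3, r of these 9 genes lay between 0.986 and 0.996. Of the members, Pax5 was nearest to the mean profile, with r = 0.998, and Ebf1 farthest, with 0.924 over 16 libraries, 0.696 in colon and 0.82 in ileum. The members are part of the profile they are set against.

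Other genes of the B cell programme were called lower in ileum with WT in part. Of 18 genes of receptor signalling, 13 were called lower and 1 higher, with a median log2 fold change of -0.86 against -2.06 for the 9 members and -0.04 for all genes. The kinase Btk fell by 1.50 ± 0.29 (adjusted p 0.003), the coreceptor Cd72 by 1.12 (0.00358) and the kinase Prkcb by 1.08 (0.00598), while Cd81, which many cell types carry, rose by 0.67 (0.00684; edgeR's test). Of 13 B cell transcription factors, 7 were called lower and none higher, with Mef2c at -0.996, Ets1 at -0.92, Pou2f2 at -1.45 and Spib at -2.15. Of 19 genes of the surface and of homing, 13 were called lower and none higher, among them the chemokine receptor Ccr6 (-2.29), Fcrla (-2.003), Cd180 (-1.42) and Cd55 (-1.01).

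The unswitched heavy chains went the same way and the plasma cell genes the other. Ighd fell by 2.43 ± 0.55 (adjusted p 0.00641) and Ighm by 1.22 ± 0.29 (0.00775; edgeR's test) from colon to ileum with WT. Of 17 plasma cell genes, 12 were called higher in ileum and none lower, with Prdm1, the factor that shuts down Pax5 in plasma cells, at 1.13 and Igha, the heavy chain of IgA, at 1.12. Of 11 germinal centre genes, Neil1 (-1.34) and Mybl1 (-1.13) were called lower. Called higher in ileum were also 11 of 12 T cell genes and 9 of 10 macrophage genes, with medians of 1.04 and 2.17.

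With Δchat, the same lists held few calls on the B cell side. None of the 18 receptor signalling genes and none of the 13 transcription factors was called between ileum and colon. Ccr6 (-1.46), Cd24a (-0.72) and Fcrla (-1.29) were among 4 of 19 surface and homing genes called lower, and Tnfrsf13b, the receptor TACI, was called higher at 0.72. Ighd was at -1.31 (adjusted p 0.118) and Ighm at -0.66 (0.145; edgeR's test). The plasma cell list held 15 of 17 genes called higher, with Igha at 1.74, and in the germinal centre list Nuggc was called higher at 1.77. Whether a list differed between strains was not tested, and the 9 genes themselves showed no call in the test of that difference.

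**Figure D5:**
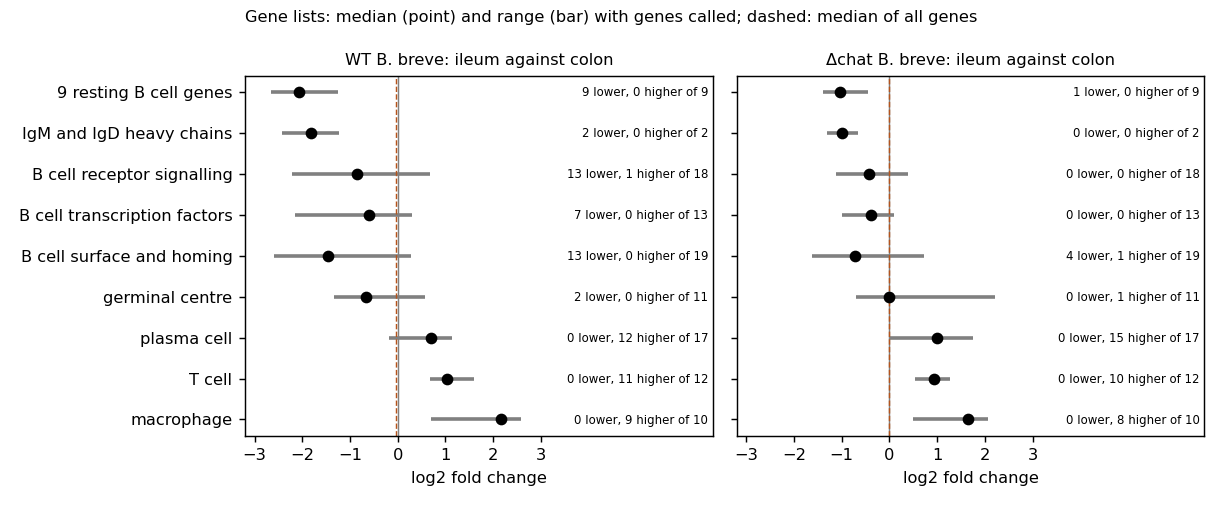
Median (point) and range (bar) of the log2 fold change, ileum against colon, in the 9 genes and 8 other lists, with the number called lower and higher of those tested, in WT (left) and Δchat (right). With WT all 9 members are called lower, and with Δchat 1 is, while the medians of the plasma cell, T cell and macrophage lists lie above 0 in both panels.

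Between strains in colon, no gene of the B-lineage lists was called. Ighd was at -0.65 ± 0.28 (adjusted p 0.368) and Ighm at -0.49 ± 0.27 (0.46; edgeR's test). Medians were -0.34 for the 19 surface and homing genes, of which 6 had an unadjusted p under 0.05 on the lower side, and -0.73 for the 11 germinal centre genes, of which 8 did. The plasma cell median was -0.89, with Igha at -1.25 (adjusted p 0.174) and Jchain at -1.20 (0.173; edgeR's test). In ileum, Ighd was at 0.43 and Ighm at 0.04 between strains, and neither was called.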

How the data were processed

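Polyadenylated RNA of lamina propria cells had been sequenced in 16 libraries, 4 in each of 4 groups. The values deposited by the authors are estimated counts for each gene; cutadapt 5.0, Salmon 1.4.0 and the build GRCm39 are named in the submitters' processing notes. Between 34.8 and 40.7% of a library's values were not whole numbers and were rounded to counts here. Salmon shares reads among similar transcripts, and antisense transcripts are counted apart only where the strand is known, which the sources used here do not give. All 16 columns belonged to a sample and none was left out. Groups came from the titles. Pairs of replicates differed by more than counting noise (chi-square of 25.4 to 93.4 per degree of freedom).

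Counts were fitted in R 4.3.3 with edgeR 4.0.16 (filterByExpr, TMM, robust quasi-likelihood, 2-sided tests). A gene was called where p, adjusted by Benjamini-Hochberg across the genes tested, was under 0.05. Strains were compared in a fit of the 8 libraries of a tissue, and the other comparisons came from 1 fit over 16 libraries. Intervals use the t quantile at the degrees of freedom of each fit. CPM printed per library are TMM-scaled over 16 libraries, and log2 CPM have a prior count of 2. The script was tested on simulated data. The members, the 15 other lists and the tests were chosen with earlier results of these data known.

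All 9 members are named. Of each other B-lineage list, up to 4 called genes by smallest p could be named per comparison, or up to 3 of the highest mean CPM where none was called. The 10 genes most like the members exclude variable segments, unnamed gene models and pseudogenes, and 1 of them is not reported here.

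Colon and ileum with 1 strain and number were taken as 1 mouse, from the design's 4 mice per strain. Deviations from the group means correlated between such pairs with r of -0.056, 0.074, -0.048 and -0.040 in WT and 0.223, 0.274, 0.189 and -0.18 in Δchat. The highest r of each colon library with an ileum library of another number was 0.181, 0.0475, 0.138 and 0.115 in WT. In Δchat it was 0.0312, 0.0611, 0.22 and 0.214. These values do not establish the pairing, which remains an assumption. Numbers do not pair mice between strains, so the replicate block in a strain comparison joined mice by number alone. Alternatives were RLE size factors, no filter, a stricter filter of 1 CPM in 4 libraries, DESeq2 1.42.0, limma-voom 3.58.1, removal of 389 immunoglobulin genes, an epithelial covariate, a replicate block, 1 fit over 16 libraries and each library left out. The reference given was of build GRCm38, so positions were not joined to the counts, and promoter windows are credited to RefSeq with build GRCm38.p6.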

Additional observations from a re-analysis of the deposited data

How the results depend on the processing

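Of 810 values of the 9 genes under the alternatives, 786 kept their direction and their side of the threshold, 8 lost a call, none gained one and 16 changed sign, none of them called before or after. The sign changed in colon between strains with the epithelial covariate for Pax5 (0.10), Blk (0.000345), Cr2 (0.067) and Cd22 (0.082), and for Ebf1 without colon Δchat replicate 1 (range with a library left out -0.021 to 0.216). In ileum between strains it changed with the epithelial covariate for Cd79a (-0.28), Fcer2a (-0.21), Blk (-0.004146), Ms4a1 (-0.13) and Cd79b (-0.10). It also changed for Cd79a with the replicate block (-0.082), which between strains joins mice by number alone. Without ileum Δchat replicate 1 or 4 it changed for Cd79a (range with a library left out -0.21 to 0.38) and for Cd79b (-0.071 to 0.47). For Fcer2a it changed without replicate 1 (-0.11 to 0.83). The cause was not tested. The 8 lost calls, in Fcer2a, Cd79b and Ebf1, came from leaving out a library, which also lowers the number of samples. With the assumed mouse as a replicate block all 9 genes stayed called between tissues with WT. Over all genes, the number called between strains in colon was 1, and 10 in 1 fit over 16 libraries, 313 with DESeq2, 2 with the epithelial covariate, 0 with the replicate block and 0 to 3 with a library left out. In ileum it was 3, and 42 in 1 fit, 0 with RLE, 5 with no filter, 0 with the stricter filter, 374 with DESeq2, 135 with limma-voom, 0 with the epithelial covariate, 0 with the replicate block and 0 to 247 with a library left out. For the difference between tissues it was 9, and 58 with DESeq2, 3 with the replicate block and 0 to 35 with a library left out. Between tissues it was 4380 with WT (2606 to 4160 with a library left out, 3900 with the replicate block) and 2028 with Δchat (1315 to 2177, 1875 with the block). No member was called between strains under any of these alternatives. With 4 libraries a group and the spread of ileum Δchat, the 95% interval of a strain difference in ileum ran as wide as -0.90 to 2.48 on the log2 scale, for Cr2.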

Other observations

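Resting B cells of the gut mostly sit in follicles, so genes of follicle stroma were read beside the 9 genes. Cxcl13, the chemokine that draws B cells into follicles, was lower in ileum than in colon with either strain: its log2 fold change was -4.35 ± 0.74 with WT (adjusted p 0.00134) and -3.54 ± 0.75 with Δchat (adjusted p 0.00746, edgeR's test). Its level was near 0 in ileum, between 0.108 and 2.21 CPM, and uneven in colon, between 4.37 and 45.5 CPM. Of 7 follicle stroma genes, 2 were called lower and 1 higher with WT, and 3 lower and 1 higher with Δchat. The list was split, with 3 of 7 above 0 with either strain and medians of -0.79 with WT and -0.17 with Δchat. Madcam1 lay opposite to Cxcl13, with means of 61.7 CPM in colon WT and 199.7 in ileum WT, and of 54.1 and 142 with Δchat. Cxcl13 therefore does not stand for the list. In colon, the germinal centre genes Rgs13 (-3.45 ± 0.50, adjusted p 0.135) and Nuggc (-1.65 ± 0.23, 0.135) had the lower values with Δchat and were not called by edgeR's test. Rgs13 was low in both groups, at 3.03 to 10.8 CPM in colon WT and 0.381 to 0.902 CPM in colon Δchat. Cxcl13, Rgs13 and, in colon, Nuggc were singled out after their values were seen.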
